A study of Mus musculus with 5 samples.

Results

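The serine and folate one-carbon enzymes were 9 genes, Phgdh, Psat1, Psph, Shmt1, Shmt2, Mthfd1, Mthfd1l, Mthfd2 and Aldh1l2, of 55482 genes in the files and 13877 genes with a mean level of at least 1 TPM (transcripts scaled to a fixed sum per library and corrected for length). They were chosen by name, as genes of one pathway, from a propionate against chloride comparison of these same libraries in which their levels had been seen to be lower with propionate. Their differences between the groups are therefore given as a description. All 9 members were found and all 9 passed the minimum level. The libraries came from GL261, a mouse glioma line that is grown in culture and in mouse brain as a model of glioma. Total RNA was taken 24 h after sodium propionate or sodium chloride was added, each labelled 1 uM. The labels name no genotype change, and no other agent, for either group. Sodium propionate was represented by replicates 2 and 3 and sodium chloride by replicates 1, 2 and 3, and the first propionate replicate was not analysed here. Both groups are of 1 cell line. Nothing in the labels ties each library to a culture of its own, so every p-value reflects the variation among these 5 libraries alone, and that variation may be technical.

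Aligned sequence came to between 7.19 and 7.63 Gb in a library, and a gene at 1 TPM had a mean coverage of 4.73 to 4.99 reads per base. Each library placed between 167.0 and 1801 kb of aligned sequence on each member, the least on Psph and the most on Mthfd1l. The files hold no read counts, so no counting interval was computed. Of the glial and glioma markers Vim, Nes, Sox2, S100b, Fabp7 and Gfap were above 1 TPM on average, and Olig2 and Slc1a3 were below it. That list summed to 6383 and 7178 TPM in the propionate libraries and to 5790 to 7398 TPM in the chloride libraries, nearly all of it Vim. In that list Fabp7, a fatty acid binding protein of glial progenitors, was called higher, at 21.5 and 26.0 TPM with propionate and 13.1, 12.95 and 14.4 TPM with chloride (limma adjusted p = 0.0195). Leaving out propionate replicate 3 gave Fabp7 an adjusted p of 0.116, leaving out chloride replicate 1 gave 0.0691 and leaving out chloride replicate 2 gave 0.050. S100b, a glial calcium-binding protein, was at 147.0 and 167.2 TPM with propionate and at 207.5, 194.1 and 203.0 TPM with chloride, without overlap (adjusted p = 0.0935). The part of these differences in the results was not tested. Of 8 immune cell markers, 1 passed the minimum level, Lyz2, and the list summed to 16.4 and 19.6 TPM in the propionate libraries, against 10.6 to 12.1 TPM in the chloride libraries, and the part of this in the results was not tested. Itgam was at 0 in every library. None of the 6 endothelial and pericyte markers and none of the 5 neuronal markers reached a mean of 1 TPM, and Cdh5, Kdr, Kcnj8, Rbfox3 and Snap25 were at 0. In bulk samples like these, fewer cells of a type and less RNA per cell cannot be told apart.

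Serine is made from the glycolytic intermediate phosphoglycerate in a chain of reactions run by PHGDH, PSAT1 and PSPH. Serine hydroxymethyltransferases then move a carbon unit from serine to tetrahydrofolate, which leaves glycine, and the folate enzymes of the cytosol and of the mitochondrion oxidise, reduce or release that unit. In many proliferating cells the mitochondrial enzymes send formate to the cytosol, where the carbon serves the synthesis of purines, thymidylate and methionine. Several genes of the pathway are known targets of the transcription factor ATF4, which responds to amino acid shortage.

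All 9 genes had lower levels in both propionate libraries than in any of the 3 chloride libraries. Both propionate libraries lay below all chloride libraries in 19.7% of the genes tested, and above them in 14.8%. The differences were modest, with percent changes of the mean TPM, propionate against chloride, of -26.6% for Mthfd1l, -23.7% for Psat1, -22.4% for Shmt1, -21.2% for Mthfd1, -20.1% for Psph, -15.3% for Shmt2, -14.3% for Mthfd2, -11.6% for Phgdh and -9.19% for Aldh1l2. On the log2(TPM + 1) scale the median change of the 9 members was -0.31, against -0.03 for all genes tested, whose quartiles were -0.16 and 0.11. By limma with Benjamini-Hochberg adjustment over all genes, 1 of the 9 members passed an adjusted p of 0.05 as lower, Mthfd1l (adjusted p = 0.0468), where 0.504% of all genes were called lower and 1.31% higher. Because the members were chosen on this contrast, nothing is read from that count. Mthfd1l lost its call when any 1 of the 5 libraries was left out.

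**Figure D1:**
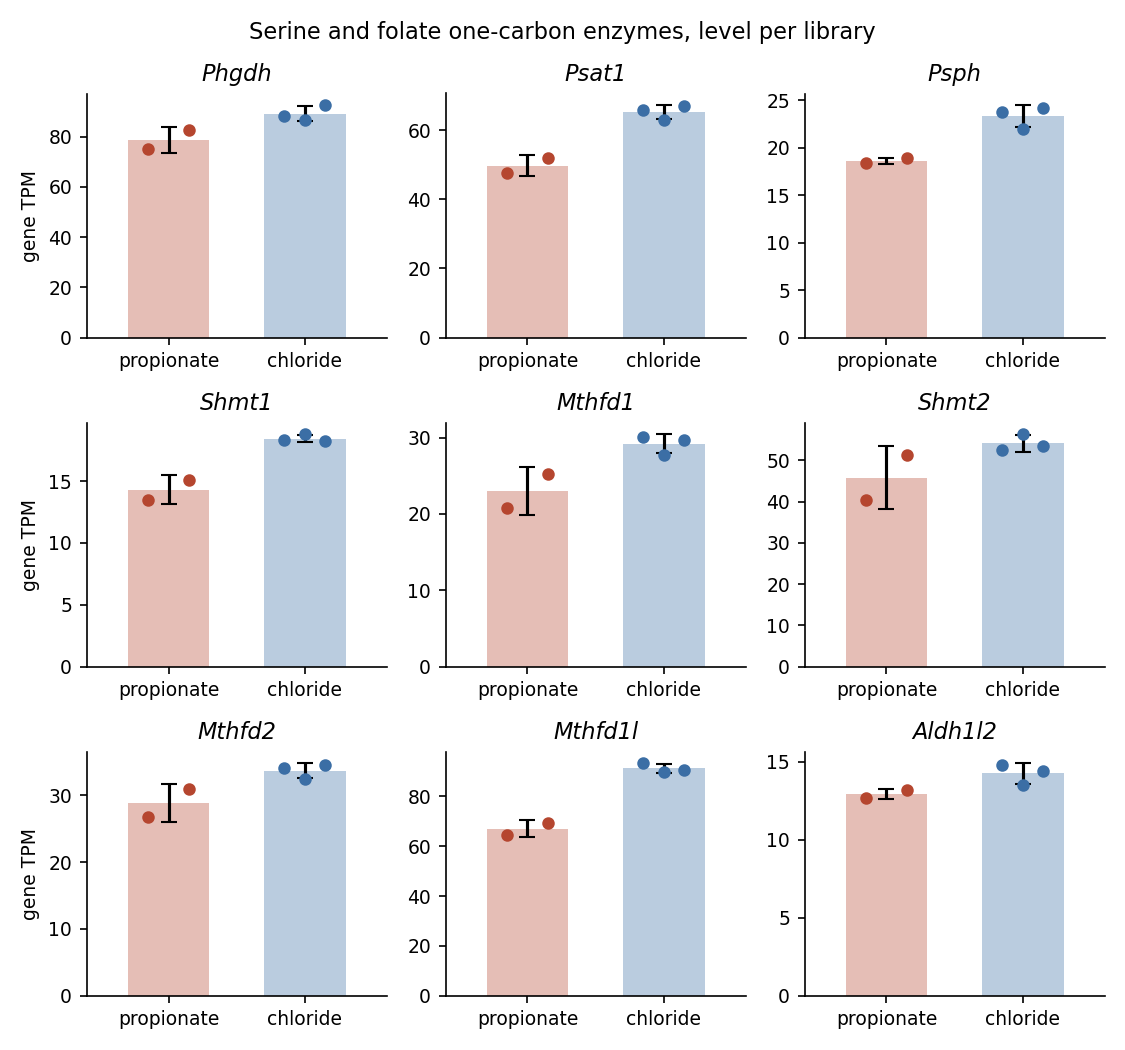
Gene TPM of each member, with the 2 propionate libraries left of the 3 chloride libraries. Bars are means, error bars are 1 SD and points are libraries. In each panel both propionate points lie below all 3 chloride points, with the widest gap in Mthfd1l (20.4 TPM) and the narrowest in Aldh1l2 (0.343 TPM).

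The promoters of 3 members are shown first, Mthfd1l because it had the largest difference, and Phgdh and Psat1 because they encode consecutive steps of serine synthesis. They are RefSeq windows on GRCm38.p6 that run from 250 bases before the annotated start to 50 bases after it, written along the gene's strand. Capitals mark matches on either strand to the letters GGGCGG, known as the GC box, and to those of the CCAAT box. Both motifs were added after the values were known, and no matches to them overlap in the windows shown. The windows are Mthfd1l at chr10:3972825-3973124 on the plus strand, Phgdh at chr3:98339920-98340219 on the minus strand and Psat1 at chr19:15925010-15925309 on the minus strand.
Mthfd1l: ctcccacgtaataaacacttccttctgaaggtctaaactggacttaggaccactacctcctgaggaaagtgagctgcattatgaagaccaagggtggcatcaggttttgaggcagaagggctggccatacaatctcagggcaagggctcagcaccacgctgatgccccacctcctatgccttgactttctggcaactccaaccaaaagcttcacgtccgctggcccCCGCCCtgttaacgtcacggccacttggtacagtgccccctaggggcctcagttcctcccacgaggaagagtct
Phgdh: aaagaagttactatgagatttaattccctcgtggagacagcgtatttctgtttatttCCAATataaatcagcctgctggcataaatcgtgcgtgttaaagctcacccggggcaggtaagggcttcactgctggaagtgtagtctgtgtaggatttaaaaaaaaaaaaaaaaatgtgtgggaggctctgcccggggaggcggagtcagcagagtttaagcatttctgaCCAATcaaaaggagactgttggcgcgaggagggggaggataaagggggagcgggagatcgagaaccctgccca
Psat1: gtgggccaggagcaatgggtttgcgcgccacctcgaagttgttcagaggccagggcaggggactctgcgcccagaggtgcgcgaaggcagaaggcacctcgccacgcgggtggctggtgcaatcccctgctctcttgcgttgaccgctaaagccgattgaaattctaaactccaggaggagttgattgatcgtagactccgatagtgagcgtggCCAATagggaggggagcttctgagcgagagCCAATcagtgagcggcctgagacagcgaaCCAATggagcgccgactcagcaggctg
RefSeq gave 9 windows for 8 members, with a pair for Psat1 and none for Aldh1l2. The response element bound by ATF4 with C/EBP factors, searched as TGATGNAAN, matched none of the 9 windows, and it matched 3.95% of 32851 windows of this length over all genes. The E-box CACGTG, which MYC and other factors bind, matched none of the 9, against 7.15% of all windows. GGGCGG was present in 5 of the 9 windows, for Mthfd1, Mthfd1l, Psat1, Psph and Shmt1, against 35.7% of all windows. In Psat1 it lay in a second window that starts at a downstream RefSeq start, and the window shown holds 3 CCAAT matches instead. CCAAT was present in 6 of the 9 windows, for Mthfd1, Mthfd2, Phgdh, Psat1, Psph and Shmt1, against 37.4% of all windows. Shmt2 had no match to any of the 4 motifs. The most abundant transcript in the files began at the RefSeq start of the window shown for Psat1, 21 bases before that of Phgdh and 69 bases after that of Mthfd1l. Among members whose windows are not shown, it lay furthest off in Psph, 196 bases before the RefSeq start. These matches describe letters in short windows and say nothing about binding.

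In the synthesis of serine, all 3 enzymes were lower with propionate, Psat1 the most. Phgdh (ENSMUSG00000053398, chromosome 3, 98313170 to 98339990, minus strand, mm10) encodes phosphoglycerate dehydrogenase, the entry step. It stood at 75.1 and 82.5 TPM in the propionate libraries, against 88.3, 86.5 and 92.5 TPM in the chloride libraries. The means were 78.8 ± 5.19 TPM (SD, n = 2) with propionate and 89.1 ± 3.06 TPM (SD, n = 3) with chloride, a change of -0.18 ± 0.09 (SE, log2 scale). The groups lay 4.08 TPM apart at their closest, less than the propionate libraries lay from each other. Phgdh-ps1, a processed pseudogene, was listed at no more than 0.619 TPM in any library.

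Psat1 (ENSMUSG00000024640, chromosome 19, 15904678 to 15947337, minus strand) encodes phosphoserine aminotransferase, which uses glutamate as nitrogen donor. Its levels were 47.6 and 51.9 TPM in the propionate libraries and 65.8, 62.9 and 66.8 TPM in the chloride libraries. The groups were separated by 11.1 TPM, and the change was -0.38 ± 0.09 (SE). Means were 49.8 ± 3.03 TPM (SD, n = 2) with propionate and 65.2 ± 2.02 TPM (SD, n = 3) with chloride.

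Psph (ENSMUSG00000029446, chromosome 5, 129765558 to 129787449, minus strand) encodes phosphoserine phosphatase, the last step. It was measured at 18.4 and 18.9 TPM in the propionate libraries, against 23.8, 22.0 and 24.2 TPM in the chloride libraries, a change of -0.31 ± 0.10 (SE). The propionate libraries were close together, and 3.13 TPM below the lowest chloride library. Psat1 and Phgdh did not keep the same proportion: the ratio of Psat1 to Phgdh was 0.634 and 0.629 with propionate and 0.745, 0.727 and 0.723 with chloride. The ratio of Phgdh to Psph was 4.08 and 4.37 with propionate and 3.71, 3.94 and 3.82 with chloride. Phgdh thus stood higher relative to Psat1 and to Psph in the propionate libraries, without overlap in either ratio. These ratios are built from the values the members were chosen on, and are given as a description.

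The serine hydroxymethyltransferases, which take the carbon unit from serine, were both lower with propionate. Shmt1 (ENSMUSG00000020534, chromosome 11, 60788104 to 60811718, minus strand), the cytosolic enzyme, stood at 13.5 and 15.1 TPM in the propionate libraries and at 18.3, 18.8 and 18.2 TPM in the chloride libraries. The chloride libraries differed by less than 1 TPM and the change was -0.35 ± 0.10 (SE). Shmt2 (ENSMUSG00000025403, chromosome 10, 127517123 to 127522444, minus strand), the mitochondrial enzyme, stood at 40.4 and 51.2 TPM in the propionate libraries and at 52.5, 56.4 and 53.6 TPM in the chloride libraries. Its change was -0.25 ± 0.12 (SE), and most of it came from 1 library. Propionate replicate 2 was 0.41 below the chloride mean on the log2 scale and propionate replicate 3 was 0.08 below it. The ratio of Shmt2 to Shmt1 was 3.0 and 3.39 with propionate and 2.87, 3.0 and 2.94 with chloride, with overlap between the groups.

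Among the folate enzymes of the mitochondrion, Mthfd1l had the largest difference of all 9 genes. Mthfd1l (ENSMUSG00000040675, chromosome 10, 3973118 to 4167081, plus strand) encodes the mitochondrial ligase that releases formate from formyl-tetrahydrofolate. It stood at 64.7 and 69.5 TPM in the propionate libraries, against 93.4, 89.9 and 90.8 TPM in the chloride libraries. The means were 67.1 ± 3.39 TPM (SD, n = 2) with propionate and 91.4 ± 1.80 TPM (SD, n = 3) with chloride, and the log2 change was -0.44 ± 0.09 (SE). The gap of 20.4 TPM between the groups was several times the range within either of them.

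Mthfd2 (ENSMUSG00000005667, chromosome 6, 83305691 to 83325908, minus strand) encodes the mitochondrial dehydrogenase and cyclohydrolase that precedes MTHFD1L, and is known for high levels in embryos and tumours and low levels in most adult tissue. It was at 26.8 and 30.9 TPM in the propionate libraries and at 34.1, 32.5 and 34.6 TPM in the chloride libraries, a change of -0.22 ± 0.10 (SE). The propionate libraries were further from each other than replicate 3 was from the nearest chloride library. Its paralogue Mthfd2l, which catalyses the same reactions, was at 9.60 and 9.67 TPM with propionate and at 7.58, 8.46 and 8.64 TPM with chloride and did not pass the test (adjusted p = 0.389). The ratio of Mthfd2 to Mthfd2l was therefore lower, at 2.80 and 3.20 with propionate and 4.49, 3.83 and 4.01 with chloride, without overlap. Mthfd1l also made up less relative to Mthfd2, at 2.41 and 2.25 times its level with propionate and 2.74, 2.77 and 2.62 times with chloride.

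Aldh1l2 (ENSMUSG00000020256, chromosome 10, 83487450 to 83534140, minus strand) encodes the mitochondrial formyl-tetrahydrofolate dehydrogenase, which burns the carbon unit to carbon dioxide and makes NADPH. It had the smallest difference, with 12.7 and 13.2 TPM in the propionate libraries, against 14.8, 13.5 and 14.4 TPM in the chloride libraries. The change was -0.13 ± 0.10 (SE), and the groups came within 0.343 TPM of each other. Its cytosolic paralogue Aldh1l1 was at 12.8 and 14.96 TPM with propionate and at 14.0, 13.2 and 11.7 TPM with chloride, and the groups overlapped. The ratio of Aldh1l2 to Aldh1l1 was 0.996 and 0.882 with propionate and 1.06, 1.02 and 1.24 with chloride, without overlap.

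In the cytosol, Mthfd1 (ENSMUSG00000021048, chromosome 12, 76255298 to 76319803, plus strand) encodes the trifunctional enzyme that takes up formate and interconverts the folate forms. It was at 20.8 and 25.2 TPM in the propionate libraries and at 30.1, 27.8 and 29.7 TPM in the chloride libraries, a change of -0.34 ± 0.11 (SE). Replicate 2 was the lower propionate library, as it was for every other member.

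The balance of mitochondrial to cytosolic folate enzymes overlapped between the groups. Summed over Shmt2, Mthfd2, Mthfd1l and Aldh1l2, the mitochondrial level was 4.22 and 4.08 times the sum of Shmt1 and Mthfd1 with propionate and 4.02, 4.13 and 4.04 times with chloride. The log2 difference of this ratio between the groups was 0.03, beside an SD of 0.034 (n = 2) with propionate and 0.021 (n = 3) with chloride. The ratio of Mthfd1l to Mthfd1 overlapped as well, at 3.11 and 2.75 with propionate and 3.10, 3.24 and 3.06 with chloride.

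The order of the levels was nearly the same in both groups. With propionate it ran Phgdh, Mthfd1l, Psat1, Shmt2, Mthfd2, Mthfd1, Psph, Shmt1 and Aldh1l2 from high to low, and only Psat1 and Shmt2 overlapped as neighbours. With chloride Mthfd1l stood above Phgdh, and that pair was the only one of neighbours whose libraries overlapped. In sum the 9 genes made up 320.1 and 358.4 TPM in the propionate libraries, against 421.0, 410.3 and 424.9 TPM in the chloride libraries.

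Propionate replicate 2 was below propionate replicate 3 in 9 of 9 members, as it was in 75% of all genes tested and 80.3% of protein-coding genes. The share of TPM held by protein-coding genes moved with this, at 45.2% and 50.3% in propionate replicates 2 and 3 and at 49.1%, 47.7% and 46.7% in the chloride libraries. With TPM rescaled over protein-coding genes alone, the members summed to 707.5 and 712.8 in the propionate libraries and to 856.5, 860.2 and 909.2 in the chloride libraries. On that scale the 2 propionate libraries were nearly level, and the groups stayed apart. On the same scale limma called 4 of the 9 members lower, Psat1, Shmt1, Mthfd1 and Mthfd1l, where 3.39% of all genes tested were called lower.

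Coverage was also compared exon by exon. Coverage was summed over all transcripts of a gene at each exon of its most abundant annotated transcript, and divided by the coverage of 1 TPM in that library. Mean coverage was lower with propionate in 128 of 140 exons of the 9 members, and in 81 exons both propionate libraries lay below all chloride libraries. Exons of a gene share their reads' source and are not replicates. The share over the exons of other genes was not computed, and the members were chosen as lower, so nothing is read from these counts.

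In Mthfd1l, 26 of 28 exons were apart in this way, and the ratio of propionate to chloride coverage ran from 0.635 to 0.831 with a median of 0.722. All 9 exons of Psat1 were apart, with ratios of 0.704 to 0.845. In Shmt1, 9 of 12 exons were apart, with a median ratio of 0.711. Mthfd1 followed with 16 of 28 exons, 1 exon being higher with propionate, and a median ratio of 0.784. Phgdh had 5 of 12 exons apart, all between exons 6 and 10, with ratios of 0.745 to 0.895 there. The ratio was below 1 at every exon in 6 of the 9 members, Phgdh, Psat1, Shmt1, Shmt2, Mthfd1l and Mthfd2.

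The groups overlapped in 8 of 12 exons of Shmt2, 4 of 8 of Mthfd2, 6 of 8 of Psph and 16 of 23 of Aldh1l2, and in 1 exon of Aldh1l2 both propionate libraries lay above all chloride libraries. The median exon ratio was 0.835 in Shmt2, 0.869 in Mthfd2, 0.835 in Psph and 0.952 in Aldh1l2.

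**Figure D2:**
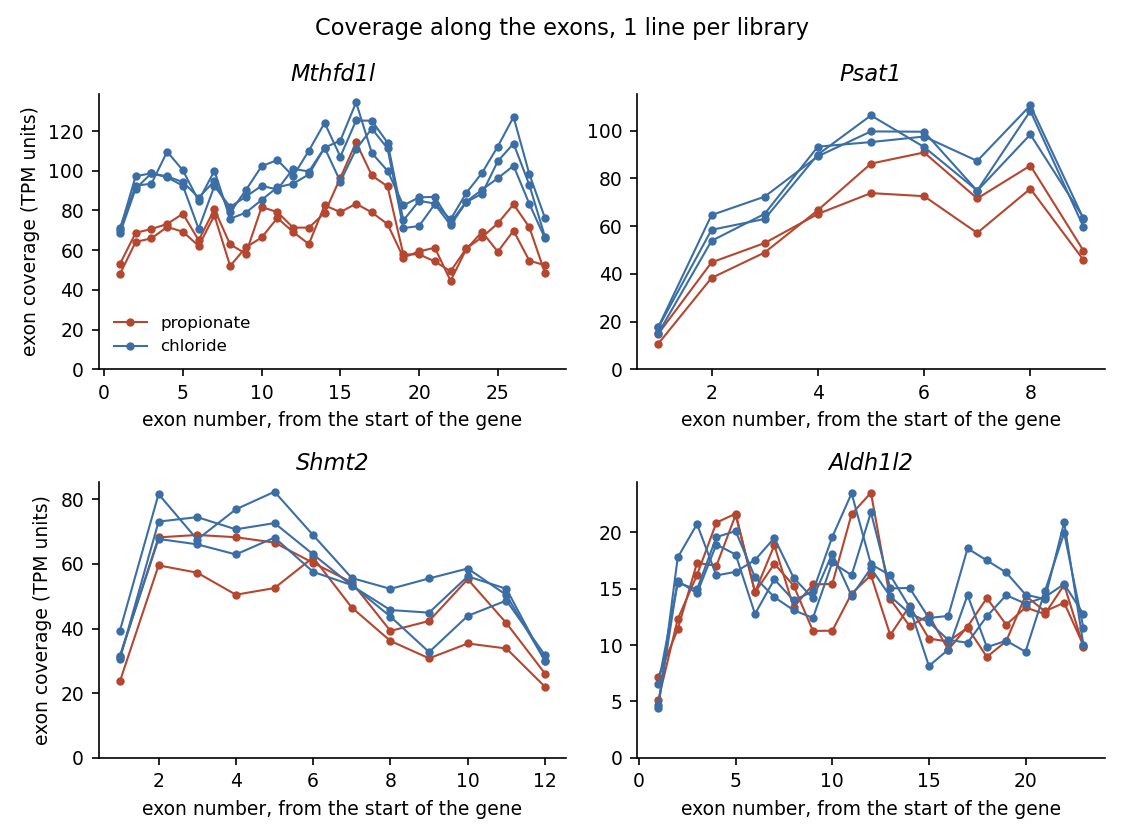
Coverage of each exon of Mthfd1l, Psat1, Shmt2 and Aldh1l2 in units of 1 TPM, with exons numbered from the start of the gene and 1 line per library. The propionate lines run below the chloride lines along nearly all of Mthfd1l and all of Psat1, and the lines cross in Shmt2 and Aldh1l2.

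Several members share exonic bases with a gene on the other strand, and the reads were assigned without a strand option. Psph shares 452 bases with Cct6a, a chaperonin subunit gene that was at 107.0 and 119.0 TPM with propionate and at 133.8, 126.3 and 132.9 TPM with chloride. The shared first exon of Psph had coverage of 1.68 to 2.39 TPM units in the 5 libraries, against 7.26 to 50.9 over its other exons. Shmt1 shares 184 bases with Smcr8, Aldh1l2 1056 bases with D10Wsu102e, Mthfd1 37 bases with Gm47525 and Shmt2 32 bases with Ndufa4l2.

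Over the exons that share no base with another gene, the propionate to chloride ratio was 0.826 for Psph, 0.726 for Shmt1, 0.777 for Mthfd1, 0.855 for Shmt2 and 0.942 for Aldh1l2, a setting chosen after the data were seen. In 2 of these genes the groups then overlapped. Shmt2 stood at 44.3 and 54.3 with propionate and at 57.7, 62.9 and 52.3 with chloride. Aldh1l2 stood at 13.5 and 14.9 with propionate and at 14.9, 15.7 and 14.6 with chloride. For Psph, Shmt1 and Mthfd1 both propionate libraries remained below all chloride libraries.

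Transcript make-up varied among libraries of the same group. Phgdh, Shmt1, Mthfd1 and Mthfd2 each drew at least 91.8% of their level from 1 annotated transcript in every library, so their gene sums are nearly those of that transcript. Mthfd1l drew on 2 main forms of 28 exons. The annotated form ENSMUST00000043735 was at 26.0 and 23.8 TPM with propionate and at 40.9, 33.6 and 36.2 TPM with chloride. An assembled form, with an exon of 35 bases (chromosome 10, 3985566 to 3985600) where the annotated one has 101 and a last exon of 606 bases in place of 498, was at 24.7 and 29.3 TPM with propionate and at 37.0, 39.8 and 34.3 TPM with chloride. Both forms were thus lower, without overlap. Another form, ENSMUST00000117291, was not, at 9.48 and 13.1 TPM with propionate and 8.58, 10.2 and 13.1 TPM with chloride. Its share of Mthfd1l was 14.7% and 18.9% with propionate and 9.19%, 11.4% and 14.4% with chloride. Assembled forms held 45.2% and 46.8% of Mthfd1l with propionate and 45.6% to 51.1% with chloride.

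In Psph 2 assembled forms exchanged share from library to library. The one with an extra exon of 112 bases (chromosome 5, 129776830 to 129776941) was at 8.45 and 2.25 TPM with propionate and at 11.1, 10.0 and 7.84 TPM with chloride. The one with a long first exon of 1439 bases was at 0.692 and 4.10 TPM with propionate and at 0.223, 0.0342 and 3.07 TPM with chloride. Replicate 3 of each group was the lowest of its group in the first form and the highest in the second. In this gene the shift thus went with the replicate number. With only 2 propionate libraries, replicate 3 had to be either the lowest or the highest of its group.

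Shmt2 varied in a like way. The annotated form ENSMUST00000026470 held 74.0% and 58.5% of its level with propionate and 71.4%, 74.2% and 51.8% with chloride. ENSMUST00000219239 held 15% and 25.7% with propionate and 18.8%, 15.9% and 29.8% with chloride. Replicate 3 of each group again differed from the other libraries. Aldh1l2 did not show this. Its form ENSMUST00000146640 held 1.91% and 15.5% with propionate and 7.42%, 0.0788% and 3.93% with chloride. In Psat1 an assembled form with an exon extended to 3867 bases held 7.89% and 8.96% with propionate and 8.18% to 9.52% with chloride.

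**Figure D3:**
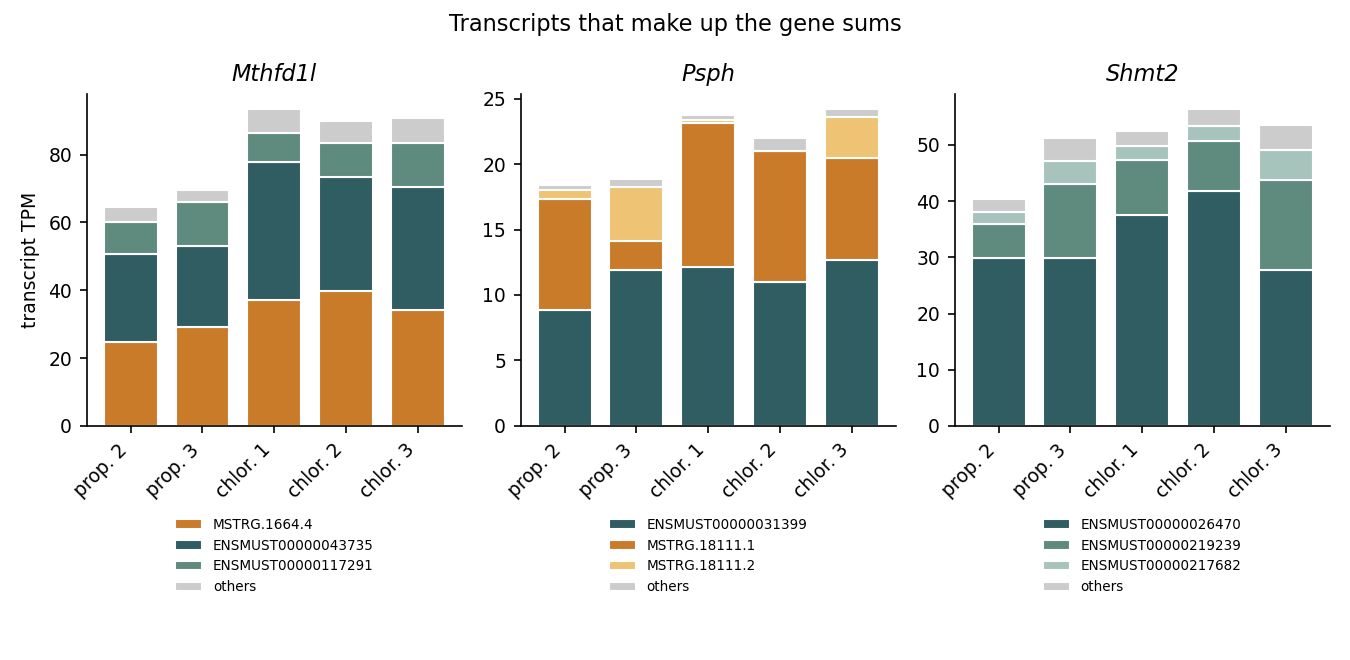
Transcript TPM stacked by library for Mthfd1l, Psph and Shmt2, with propionate libraries left of chloride libraries. Orange shades are assembled transcripts, green shades annotated ones and grey the rest. In Mthfd1l the 2 main forms both have lower TPM with propionate, and in Psph and Shmt2 the make-up of replicate 3 of both groups differs from that of the other libraries.

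Around the members, 67 other genes of the pathway were tested, from lists that were drawn up with earlier results of these data known. By limma 1 was called higher and 0 were called lower, and at an unadjusted p under 0.05 2 were higher and 7 lower. These are 2.99% and 10.4% of the 67, where 7.93% and 8.91% of all genes tested were higher and lower at that p. Of the other folate enzymes and folate uptake genes, 13 of 15 were tested, with a median change of -0.03. Ggh, a lysosomal hydrolase that trims the glutamate tail of folates, was the 1 called higher. It was at 59.0 and 59.9 TPM with propionate and at 42.4, 42.5 and 40.2 TPM with chloride, a change of 0.50 ± 0.09 (SE, adjusted p = 0.0326), and like Mthfd1l it lost its call when any 1 library was left out.

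Tyms, thymidylate synthase, did not pass the test. It was at 10.6 and 13.5 TPM with propionate and at 16.1, 13.9 and 16.9 TPM with chloride (adjusted p = 0.234). Both propionate libraries lay below all chloride libraries. Slc25a32, the mitochondrial folate carrier, overlapped, at 6.42 and 7.73 TPM with propionate and 6.55, 6.15 and 6.75 TPM with chloride.

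None of the 7 tested genes of glycine cleavage and serine breakdown was called, and their median change was 0.16. Gldc, the glycine decarboxylase, was low, at 1.84 and 2.44 TPM with propionate and 1.80, 1.42 and 1.10 TPM with chloride (adjusted p = 0.391). Dld, the dehydrogenase shared with pyruvate oxidation, was at 35.2 and 38.5 TPM with propionate and at 43.2, 42.1 and 42.3 TPM with chloride (adjusted p = 0.313). Gcsh, the lipoyl carrier of the complex, was at 26.7 and 33.4 TPM with propionate and at 35.9, 34.5 and 35.4 TPM with chloride (adjusted p = 0.355). The values of the complex's parts thus lay on both sides of 0.

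Of 8 tested serine and glycine transporters none was called, with a median change of -0.15. The glycine transporter Slc6a9 had the smallest p among them, at 23.5 and 26.4 TPM with propionate and 34.8, 35.7 and 29.5 TPM with chloride (adjusted p = 0.131). Slc38a2, a carrier of small neutral amino acids, was at 46.8 and 43.0 TPM with propionate and at 57.9, 51.5 and 47.8 TPM with chloride (adjusted p = 0.369). Sfxn1, the mitochondrial serine carrier, overlapped, with means of 14.2 ± 0.806 TPM (SD, n = 2) with propionate and 14.2 ± 0.501 TPM (SD, n = 3) with chloride.

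The methionine cycle and transsulfuration list had 8 tested genes, none called, and a median change of -0.04. Cbs, which joins serine to homocysteine, was at 2.15 and 1.34 TPM with propionate and at 0.743, 0.524 and 0.386 TPM with chloride (adjusted p = 0.117). Mat2b, a regulator of S-adenosylmethionine synthesis, was at 108.6 and 108.7 TPM with propionate and at 126.4, 120.8 and 121.6 TPM with chloride (adjusted p = 0.326). All 11 purine synthesis genes were tested and none was called, with a median change of -0.04. Atic, which carries out a formyl transfer from folate, was at 38.9 and 42.3 TPM with propionate and at 53.3, 52.7 and 50.5 TPM with chloride (adjusted p = 0.0982). Pfas, an enzyme of an earlier step, was at 10.5 and 12.0 TPM with propionate and at 15.9, 13.7 and 14.1 TPM with chloride (adjusted p = 0.177). Gart, the other enzyme that uses formyl-tetrahydrofolate, was not singled out by its change and overlapped, at 40.8 and 46.6 TPM with propionate and 48.8, 46.9 and 42.8 TPM with chloride.

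**Figure D4:**
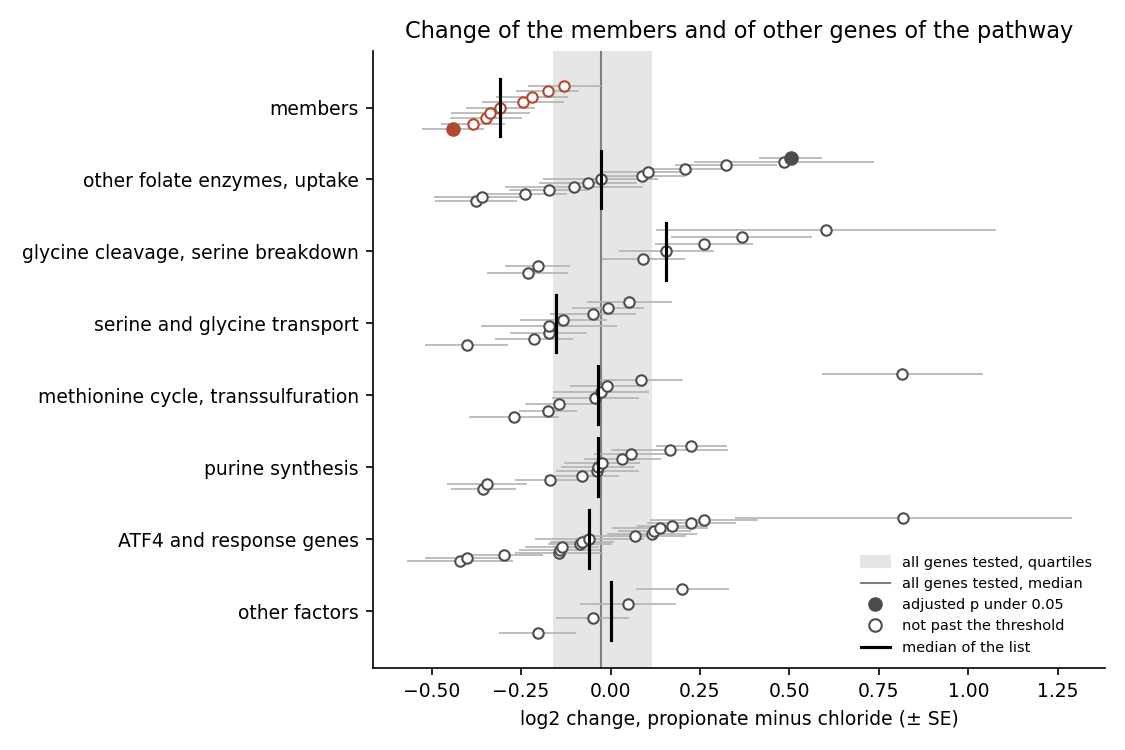
Log2 change, propionate minus chloride, ± SE for the members and for the other tested genes of each list. The grey band and line are the quartiles and the median of all genes tested, black bars are list medians and filled points passed an adjusted p of 0.05. The 9 members lie between -0.44 and -0.13, and the other lists have members on both sides of 0.

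Of ATF4 and its amino acid response genes, 17 were tested, none was called and the median change was -0.06. At an unadjusted p under 0.05 by limma, 0 were higher and 3 lower, Slc6a9, Chac1 and Atf5. Of all genes tested, 7.93% were higher and 8.91% lower at that p. The list was drawn up with earlier results known, so nothing is read from this count. Slc6a9, given above with the transporters, had the smallest p here too. Chac1, a glutathione-degrading enzyme, was at 2.53 and 3.34 TPM with propionate and at 4.03, 4.58 and 4.12 TPM with chloride (adjusted p = 0.204). Asns, asparagine synthetase, overlapped at 65.9 and 72.7 TPM with propionate and 76.0, 71.9 and 72.7 TPM with chloride. Ddit3 was in the other direction from the members, at 50.4 and 56.0 TPM with propionate and 47.1, 44.4 and 49.7 TPM with chloride (adjusted p = 0.417).

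Atf4 itself was listed at 25.7 and 24.6 TPM with propionate and at 25.3, 17.6 and 5.67 TPM with chloride, but it exchanged coverage with an assembled read-through transcript counted in its neighbour Mief1. With that transcript added, Atf4 was at 45.5 and 50.8 TPM with propionate and at 53.7, 49.0 and 39.6 TPM with chloride, and the groups overlapped on either count. Amt, the aminomethyltransferase of glycine cleavage, was affected in the same way by its neighbour Nicn1 and overlapped as listed. Of the other factors reported to act on serine synthesis genes 4 were tested and none was called. Myc was at 19.6 and 21.6 TPM with propionate and at 21.1, 22.2 and 16.7 TPM with chloride. Hif1a was at 21.1 and 23.8 TPM with propionate and at 28.1, 24.95 and 24.8 TPM with chloride (adjusted p = 0.384). Nfe2l2, a factor of the oxidative stress response, overlapped, at 31.6 and 40.3 TPM with propionate and 33.8, 31.5 and 27.8 TPM with chloride (adjusted p = 0.484).

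The genes whose pattern over the 5 libraries was most like the members' mean were sought among 11203 tested protein-coding genes outside the lists. Likeness was the root-mean-square difference of log2(TPM + 1) after centring each gene on its mean. The nearest were Dhx30, an RNA helicase gene (0.0173), Mrps18b, a gene of a mitochondrial ribosomal protein (0.0181), and Sh3rf1, a ubiquitin ligase gene (0.0210). Among the members themselves this difference ran from 0.0380 for Mthfd2 to 0.0877 for Aldh1l2. Dhx30 stood at 18.2 and 20.6 TPM with propionate and at 24.2, 23.1 and 23.5 TPM with chloride. With 5 libraries many genes can lie this close, and these 3 are given as a description.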

How the data were processed

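Libraries of GL261 total RNA were prepared with a TruSeq stranded total RNA kit, per the labels' protocols. For the build mm10, HISAT2, fastp, bcl2fastq and StringTie are named in the submitters' processing notes. Per the file headers, StringTie 2.1.1 estimated the abundance of the transcripts of one merged annotation, with no strand option. The deposited values are coverage, FPKM and TPM of each transcript; counts of reads are not among them. TPM is relative to all transcripts of a library.

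Gene TPM was the sum of a gene's Ensembl transcripts, joined through GENCODE M21, plus assembled transcripts of the same locus and strand, each given to the gene with the largest exonic overlap (12224 of 15415). Those at a mean TPM of 1 or more (13877 genes) were tested on log2(TPM + 1) with limma 3.58.1 in R 4.3.3 (lmFit and eBayes with trend), two-sided, with group alone in the model and a threshold of 0.05 on the Benjamini-Hochberg adjusted p. The 1 TPM added before taking logs understates the change of low genes. The procedure was tested on data simulated with independent noise of the model's own spread. Such data cannot show shifts shared by the genes of a library. A single-gene exact permutation test of 2 against 3 libraries cannot go below p = 0.1.

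The members and lists were chosen with earlier results of these data known. Named were all members, from each list the called genes with the largest changes, up to 4, or the 2 of smallest p in a list without a call, further pathway genes fixed by name, of which some are not reported here, and the 3 genes nearest in pattern. Ddit3, Gart, Amt, Atf5 and, among the markers, S100b fall outside this rule and were named after their values were seen. Alternatives were another pseudocount, other minimum levels, FPKM, other scalings, annotated transcripts only, voom on aligned bases, a replicate block and leaving out each library.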

Additional observations from a re-analysis of the deposited data

How the results depend on the processing

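The counts of called genes moved widely with the processing. No member changed direction under any of 14 alternatives, which decides little, since the members were chosen as lower in these libraries. With both propionate libraries below all chloride libraries, leaving out 1 library cannot reverse a member. As reported, 182 genes were higher and 70 lower of 13877 tested. Of the same 13877, median-of-ratios scaling gave 336 and 154 and voom gave 708 and 359. Rescaling over protein-coding genes gave 629 and 405 of 11964. There were 240 and 118 with FPKM, 2 and 1 with no minimum level and 5 and 6 with annotated transcripts only. Leaving out each library gave 8 to 126 higher and 7 to 46 lower. Of the members, 2 were called with median-of-ratios scaling (Psat1 and Mthfd1l). Rescaling over protein-coding genes and voom each called 4 (Psat1, Shmt1, Mthfd1 and Mthfd1l in both). With no minimum, with annotated transcripts only and without any 1 chloride library, 0 were called. The members were chosen on this contrast, so nothing is read from these counts. The change of Mthfd1l ranged from -0.49 to -0.38 and its adjusted p from 0.00401 to 0.251. It was called in 7 of 15 settings, and so was Ggh, whose change ranged from 0.48 to 0.53 (adjusted p 0.00391 to 0.155). Without propionate replicate 2 the change of Shmt2 was -0.08 and that of Mthfd2 -0.12; without propionate replicate 3 they were -0.41 and -0.32. The members' median was 0.223 to 0.328 below that of all genes, which is a description, since the members were chosen as lower.

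Of the 67 other pathway genes, 2 were called higher over protein-coding genes (Cbs and Ggh) and 2 with voom (Paics and Ggh), and 0 with no minimum, with annotated transcripts only and without any 1 library. Called lower were 1 with median-of-ratios scaling (Atic), 3 over protein-coding genes (Pfas, Atic and Slc6a9) and 4 with voom (those 3 among them). Over protein-coding genes 3.39% of all genes tested were called lower. The lists were drawn up with earlier results known, so nothing is read from these counts either. The log2 ratio of mitochondrial to cytosolic members differed by 0.08 with annotated transcripts only, against 0.03. In each case the cause was not tested. Where 1 propionate library was left out, the other was assumed to vary like the chloride libraries.

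The labels do not tie the shared replicate numbers to a common origin, so the samples were not treated as paired. In Psph and Shmt2 the transcript make-up of replicate 3 differed from that of the other libraries in both groups. Whether this reflects a common origin was not tested. Libraries of the same number had correlations of -0.222 and -0.196 of their deviations from the group means, which decide little, since the deviations of 2 propionate libraries mirror each other. Chloride replicate 1 has no propionate partner, so a replicate block compares replicates 2 and 3 of the groups alone. The change of Mthfd1l was thus -0.425 with the block, the same as without chloride replicate 1. With a replicate block 267 genes were higher and 105 lower, with 0 members called and 2 other pathway genes (Amt and Atf4) called higher. The listed levels of both depend on read-through transcripts counted in a neighbour. The block was not run with those transcripts added, so no change of either gene is read from these calls. Phgdh, Psph, Shmt2, Mthfd2 and Aldh1l2 were called in 0 of 15 settings, and with 2 propionate libraries differences of that size may not pass.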
